A study of Homo sapiens with 6 samples.

Results

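Autophagy and lysosome genes, EI24 among them, were examined in the established human colorectal cancer line DLD-1 after transfection with an siRNA against lncSLCC1 or with a control siRNA. lncSLCC1 is a long non-coding RNA that the count tables list as RP11-400N13.2. The genes were chosen by symbol from a list of 47, of which 28 act in autophagy and 19 in the lysosome. Of these, 46 were found among the 56638 symbols listed, 27 autophagy and 19 lysosome genes. ATG101 was not among the symbols and was found under its older name, C12orf44, so it is described apart from the counts. There were 3 lncSLCC1 siRNA libraries and 3 control siRNA libraries of total RNA, and both groups came from the same passage range and the same serum-supplemented medium. Nothing in the sources used here gives the siRNA sequences, their dose or the time after transfection. Separate cultures are not stated for the libraries of a group, and each p-value therefore covers only the variation among these 6 libraries, part or all of which may be technical.

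Autophagy encloses cytoplasm in a double membrane, the autophagosome, which then fuses with the lysosome. A kinase complex built on ULK1 starts the process, a class III phosphatidylinositol kinase complex with BECN1 and ATG14 marks the membrane, and linked conjugation systems attach proteins of the ATG8 family to lipid. Cargo receptors such as SQSTM1 and NBR1 tether ubiquitinated cargo to those ATG8 proteins and are themselves degraded with it. EI24 encodes a membrane protein of the endoplasmic reticulum, first described as a gene induced by p53 and later shown to be needed for autophagosomes to be cleared. The lysosome holds acid hydrolases such as cathepsins, is acidified by the vacuolar ATPase, and has many genes that share a short promoter word, the CLEAR element, bound by TFEB and TFE3.

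Reads assigned to genes numbered 12572277 to 15262872 in lncSLCC1 siRNA libraries and 14873343 to 15568075 in control libraries. Levels are given in CPM, the reads of a gene per 1000000 reads of the library, on library sizes scaled by TMM, a normalization that assumes most genes do not differ. A gene was called higher or lower at an adjusted p under 0.05 in edgeR's quasi-likelihood test over 15242 genes. The targeted RNA had 1.66, 2.62 and 2.10 CPM in lncSLCC1 siRNA libraries, against 5.20, 9.31 and 9.04 CPM in control libraries, and was called lower (log2 fold change -1.88, SE 0.264, edgeR adjusted p = 0.0027). Control replicate 1 stood apart from the other controls: a chi-square statistic per gene, which is about 1 for sampling noise alone, was 17.4 and 30.7 between it and control replicates 2 and 3, 5.92 between those 2, and 1.86 to 1.99 between lncSLCC1 siRNA libraries. Of the colorectal epithelium markers, 9 of 10 reached a mean of 1 CPM, with a summed 5901 to 6229 CPM in lncSLCC1 siRNA libraries and 5796 to 7221 CPM in control libraries. Fibroblast, blood cell, endothelial and liver markers reached that level in 1 of 6, 1 of 6, 1 of 4 and 1 of 4 cases, and DCN, LUM, HBB, PECAM1, KDR and TTR had no read.

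The changes in the autophagy genes ran in both directions, while all but 1 of the tested lysosome genes were not called. Of 27 autophagy genes tested, 6 were higher and 4 lower in lncSLCC1 siRNA libraries, 37.0% in all, where 13.8% of all tested genes were called. By direction these were 22.2% higher and 14.8% lower, against 6.46% and 7.39% of all tested genes. Without EI24, 34.6% of 26 autophagy genes were called. The genes were listed with earlier results of these data known, so these shares are a description only. Of 18 lysosome genes tested, 0 were higher and 1 was lower, which is 5.56%. An unadjusted p under 0.05 was reached by 13 autophagy genes and 2 lysosome genes, and by 31.6% of all tested genes. The groups did not overlap in CPM for 15 autophagy genes and 5 lysosome genes, or 55.6% and 27.8%, against 39.0% of all tested genes. Of these, 10 autophagy and 2 lysosome genes lay higher and 5 and 3 lay lower, against 19.4% and 19.6% of all tested genes. A log2 fold change above 0 was found for 16 autophagy genes, 6 lysosome genes and 51.0% of all tested genes. The median log2 fold change was 0.10 over the autophagy genes, -0.03 over the lysosome genes and 0.0072 over all tested genes. Most of these genes were well covered, with 24 of the 27 and 17 of the 18 at a mean of 10 CPM or more, a level at which 16.6% of all genes were called. With library totals in place of TMM the balance over all genes moved to 1442 higher and 814 lower, against 984 and 1126, and the autophagy genes then stood at 7 higher and 3 lower.

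**Figure D1:**
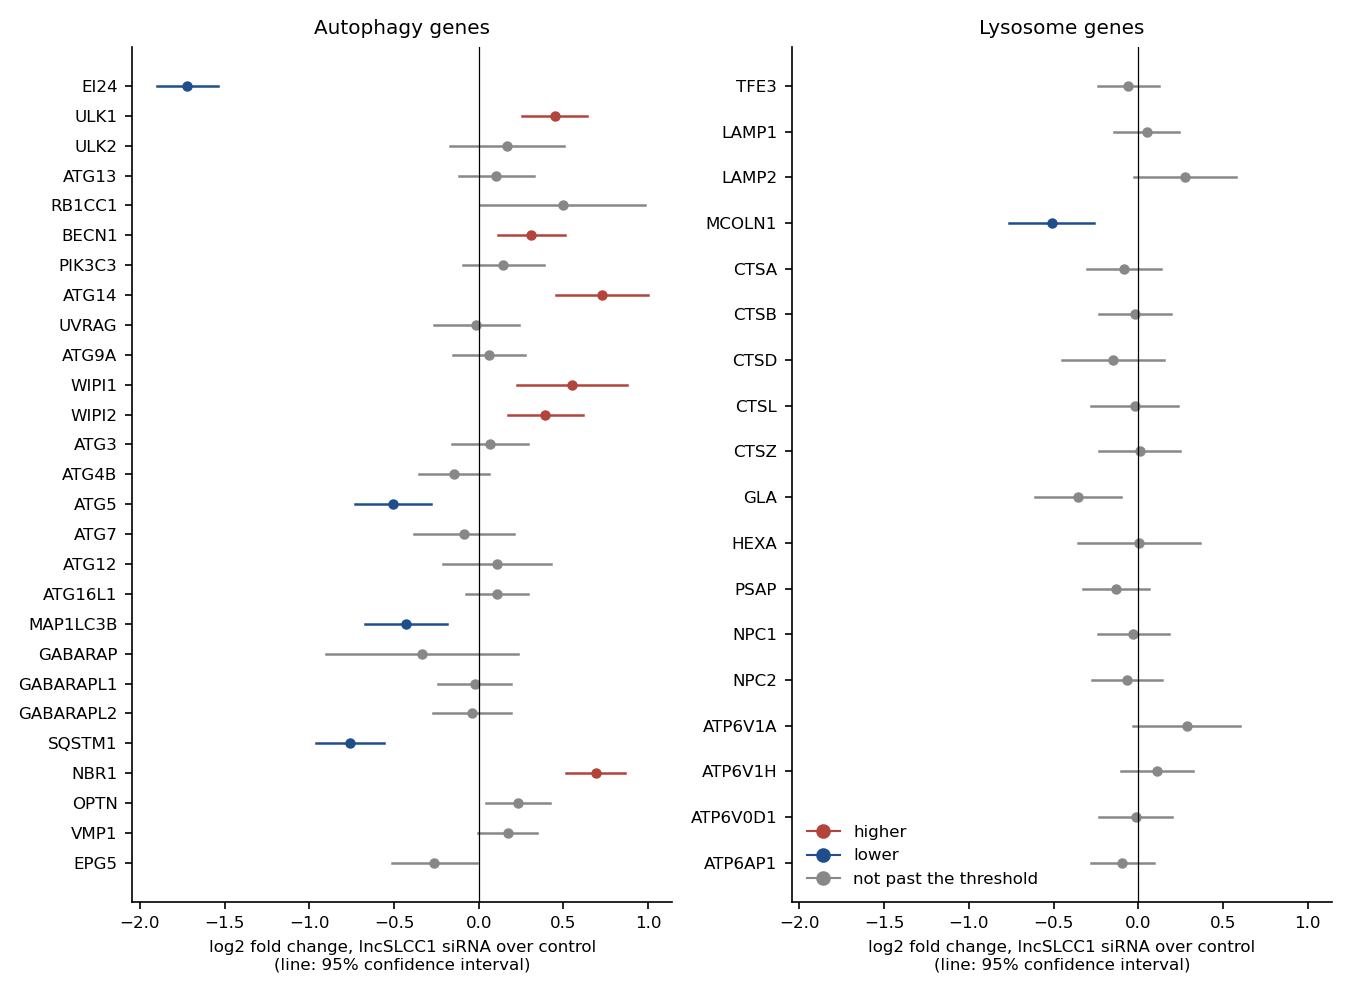
Log2 fold change (lncSLCC1 siRNA over control, x axis) of each tested autophagy gene on the left and lysosome gene on the right, with 95% confidence intervals from edgeR, red for higher, blue for lower and grey for not called. EI24, at -1.72, lies far to the left of all others, the remaining called genes lie between -0.76 and 0.73, and MCOLN1 is the single coloured lysosome gene.

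Beside the levels, the 3' untranslated regions (3' UTRs) of the called genes were read for the word CCTTCT. That word was found over-represented among genes lower after lncSLCC1 siRNA in an earlier analysis of these same counts, so its presence here is a description and not independent evidence. It was searched on the transcript strand in the longest annotated 3' UTR of GENCODE release 29. Of tested genes with a 3' UTR, 61.2% of the lower, 49.6% of the higher and 44.3% of those not called held it. Among the genes described here it was found in 4 of the 5 called lower, 1 of the 6 called higher and 12 of the 34 not called. The windows below show each copy in the called genes, 5′ to 3′, with the word in capitals.
EI24, base 123 after the stop codon: tgcgtattcCCTTCTctctgagga
EI24, base 339: tccatcctgCCTTCTaccaccctt
SQSTM1, base 98: gtttctctgCCTTCTtccaggatc
SQSTM1, base 1006: ctgctgaggCCTTCTcttgaggcc
ATG5, base 24: gaagtttgtCCTTCTgctattgat
MAP1LC3B, base 890: gacacactcCCTTCTgccttccgg
WIPI2, base 2614: gggaccaaaCCTTCTgtaatctct
The lower gene without the word was MCOLN1, whose 3' UTR is 214 bases long. WIPI2 was the higher gene with it. A copy of the word is not evidence that anything binds there.

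EI24 had the largest fold change of the 45 genes tested. Its level was 47.2, 45.5 and 46.9 CPM in lncSLCC1 siRNA libraries, against 162, 149.7 and 148 CPM in control libraries. Every lncSLCC1 siRNA library lay far below every control, and the replicates of each group lay close together. The means were 46.5 ± 0.940 CPM and 153 ± 7.65 CPM (SD, n = 3 each), so 30.3% of the control level was left. This is a 3.30-fold lower level (log2 fold change -1.72, SE 0.081, 95% confidence interval -1.90 to -1.54), with an edgeR adjusted p of 1.0e-05. It was the 7th lowest log2 fold change of the 15242 genes tested. By exact permutation of the libraries (two-sided, on log2 CPM) p was 0.1, the smallest that 3 against 3 allow. In bulk RNA, less of a transcript per cell and fewer cells that make it cannot be told apart. The values rest on 602 to 712 reads in lncSLCC1 siRNA libraries and 2278 to 2300 reads in control libraries. In each of the 14 alternative analyses EI24 was called lower, at log2 fold changes from -1.75 to -1.65. On chromosome 11 its annotated exons share no base with another gene in GENCODE release 29, and its 4 listed pseudogenes, EI24P1 to EI24P4, had 0 reads. The neighbouring gene FEZ1, a kinesin adaptor, had at most 2 reads a library and was not tested. On the other side, STT3A, the catalytic subunit of an oligosaccharyltransferase, had 231, 245 and 260 CPM in lncSLCC1 siRNA libraries and 256, 225 and 237 CPM in control libraries, which overlap (log2 fold change 0.03, SE 0.082, edgeR adjusted p = 0.803).

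The ULK1 initiation complex had 1 higher gene of 4 tested. ULK1, the kinase that gives it its name, had 54.5, 55.5 and 58.8 CPM in lncSLCC1 siRNA libraries and 42.1, 41.7 and 39.8 CPM in control libraries. The groups did not overlap, and the difference passed the test (log2 fold change 0.45, SE 0.086, edgeR adjusted p = 0.0103). RB1CC1, the large scaffold of the complex also called FIP200, was more variable than its fellows: it had 72.3, 78.5 and 75.0 CPM in lncSLCC1 siRNA libraries and 32.3, 58.3 and 69.4 CPM in control libraries. Its groups did not overlap, but control replicate 1 was far below the other controls and the gene was not called (log2 fold change 0.50, SE 0.217, edgeR adjusted p = 0.150). Without control replicate 1 it was called higher at a smaller log2 fold change of 0.24. ULK2, a second kinase, and ATG13, a regulatory subunit, had log2 fold changes of 0.17 and 0.10 and were not called. ATG101, which binds ATG13 and is listed as C12orf44, ran the other way. It had 30.3, 27.3 and 28.9 CPM in lncSLCC1 siRNA libraries and 46.99, 39.6 and 37.1 CPM in control libraries, without overlap, and was called lower (log2 fold change -0.51, SE 0.113, edgeR adjusted p = 0.0178). A share of 19.2% of its exon bases lies across from an antisense transcript.

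In the class III PI3-kinase complex 2 of 4 genes were higher. ATG14 encodes the subunit that directs the kinase to autophagy. It had 34.1, 35.5 and 34.8 CPM in lncSLCC1 siRNA libraries and 17.7, 21.5 and 23.9 CPM in control libraries, the largest rise among the autophagy genes described here (log2 fold change 0.73, SE 0.122, edgeR adjusted p = 0.0059). The lncSLCC1 siRNA libraries were nearly level with each other, and all stood above the highest control. BECN1, the complex's core regulator, had 68.8, 77.8 and 74.7 CPM in lncSLCC1 siRNA libraries and 63.1, 57.5 and 58.1 CPM in control libraries. The groups were separate, by a smaller step, and the call was close to the threshold (log2 fold change 0.31, SE 0.089, edgeR adjusted p = 0.0459). BECN1 exons share 17.1% of their bases with CNTD1 and PSME3 on the other strand, and the log2 fold changes of those 2 genes were 0.33 and -0.11, neither called. The groups overlapped in CPM for CNTD1 but not for PSME3. PIK3C3, the catalytic subunit, and UVRAG, which takes the place of ATG14 in an endosomal form of the complex, were at 0.15 and -0.01 and not called.

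WIPI1 and WIPI2, which encode proteins that read the lipid made by that kinase, were higher. The other WIPI family genes, WDR45B and WDR45, had log2 fold changes of -0.07 and 0.18 and were not called. WIPI2, which recruits the ATG16L1 complex, had 86.1, 80.8 and 83.1 CPM in lncSLCC1 siRNA libraries and 71.7, 61.7 and 57.0 CPM in control libraries (log2 fold change 0.39, SE 0.100, edgeR adjusted p = 0.0307). WIPI1 was expressed at a far lower level, with 6.78, 6.32 and 7.48 CPM in lncSLCC1 siRNA libraries and 4.98, 4.82 and 4.23 CPM in control libraries (log2 fold change 0.55, SE 0.147, edgeR adjusted p = 0.0362). In neither WIPI1 nor WIPI2 did the groups overlap. WIPI1 values rest on 96 to 102 reads in lncSLCC1 siRNA libraries and 65 to 74 in control libraries, and 28.1% of its exon bases are shared with genes on the opposite strand, ARSG among them. ARSG had 1.93, 2.75 and 1.95 CPM in lncSLCC1 siRNA libraries and 1.64, 1.89 and 0.911 CPM in control libraries and was not called (log2 fold change 0.59, SE 0.294, edgeR adjusted p = 0.200). DESeq2 did not call WIPI1. ATG9A, the membrane protein of the vesicles that seed autophagosomes, was at 0.06 and not called. A share of 38.8% of its exon bases lies in another annotated gene on the same strand.

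The conjugation machinery had 1 lower gene of 6 tested. ATG5, which is joined to ATG12 to form the ligase for ATG8 proteins, had 28.6, 28.7 and 31.4 CPM in lncSLCC1 siRNA libraries and 38.4, 45.2 and 42.5 CPM in control libraries. No lncSLCC1 siRNA library reached the lowest control (log2 fold change -0.51, SE 0.101, edgeR adjusted p = 0.0122). Its partners were not called: ATG12 was at a log2 fold change of 0.11 and ATG16L1 at 0.11, the second with groups that did not overlap. The E1-like enzyme ATG7, the E2-like enzyme ATG3 and the protease ATG4B, which primes ATG8 proteins and removes them from lipid, were at -0.09, 0.07 and -0.15, also not called. ATG7 shares 18.1% of its exon bases with a gene on the opposite strand.

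Among the ATG8 family, MAP1LC3B was lower and the 3 GABARAP genes were not called. MAP1LC3B encodes LC3B, the protein most often followed as a mark of autophagosomes. It had 40.7, 38.4 and 43.0 CPM in lncSLCC1 siRNA libraries and 55.5, 60.9 and 48.1 CPM in control libraries, without overlap (log2 fold change -0.43, SE 0.108, edgeR adjusted p = 0.0295). The call was lost with library totals. GABARAP, GABARAPL1 and GABARAPL2 were at -0.34 (SE 0.254), -0.02 (SE 0.097) and -0.04 (SE 0.104). Per kilobase of transcript, GABARAPL1 was the most abundant of the 4, at 60.8 ± 0.931 CPM per kilobase in lncSLCC1 siRNA libraries and 61.9 ± 7.88 in control libraries (SD, n = 3 each). MAP1LC3B stood at 15.1 ± 0.850 CPM per kilobase in lncSLCC1 siRNA libraries and 20.4 ± 2.40 in control libraries, and GABARAP at 1.68 ± 0.413 and 2.11 ± 0.573. GABARAP is uncertain, since 55.7% of its exon bases are shared with other annotated genes and ambiguous reads were not counted. MAP1LC3B has a near-identical copy, MAP1LC3B2. Reads that aligned equally well to both were not unique and so counted for neither, and some others may be exchanged. MAP1LC3B2 had 6.05 ± 0.115 CPM in lncSLCC1 siRNA libraries and 7.28 ± 0.650 CPM in control libraries (SD, n = 3 each). It was not called (log2 fold change -0.26, SE 0.135, edgeR adjusted p = 0.208).

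The cargo receptors moved in opposite directions. SQSTM1, the receptor also known as sequestosome, had 263, 256 and 271 CPM in lncSLCC1 siRNA libraries, against 500.3, 430 and 406 CPM in control libraries. All 3 lncSLCC1 siRNA libraries lay well below the lowest control, and control replicate 1 was the highest. The means were 263 ± 7.87 CPM and 445 ± 49.0 CPM (SD, n = 3 each), which left 59.1% of the control level (log2 fold change -0.76, SE 0.090, edgeR adjusted p = 0.0010). NBR1, a receptor of related domain structure, had 123, 126 and 128 CPM in lncSLCC1 siRNA libraries, against 77.0, 74.7 and 82.0 CPM in control libraries. Here every lncSLCC1 siRNA library was far above every control, with a log2 fold change of 0.69 (SE 0.078, edgeR adjusted p = 0.00079). OPTN, a receptor for damaged mitochondria and bacteria, had 64.9, 60.4 and 67.6 CPM in lncSLCC1 siRNA libraries and 56.5, 53.9 and 53.9 CPM in control libraries. Its groups did not overlap, but it was not called (log2 fold change 0.23, SE 0.086, edgeR adjusted p = 0.0977). SQSTM1 exons share 22.0% of their bases with MGAT4B and MRNIP on the other strand. Neither neighbour was called: MGAT4B had a log2 fold change of -0.19, and MRNIP, listed as C5orf45, had one of -0.01. For MGAT4B the groups did not overlap in CPM, as for 39.0% of all tested genes, and it lay lower as SQSTM1 did.

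VMP1 and EPG5 act late or at the endoplasmic reticulum, as EI24 does. VMP1, which encodes an ER membrane protein needed for autophagosomes to form and detach, was at a log2 fold change of 0.17 (SE 0.079, edgeR adjusted p = 0.171). EPG5, which encodes a tether for fusion with lysosomes, was at -0.26 (SE 0.112, edgeR adjusted p = 0.141). In both the groups did not overlap, though neither gene was called. The counterparts of EI24, VMP1 and EPG5 in Caenorhabditis elegans were found together among mutants blocked in autophagy. Of the 3 human genes, EI24 passed the test here and the other two did not.

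**Figure D2:**
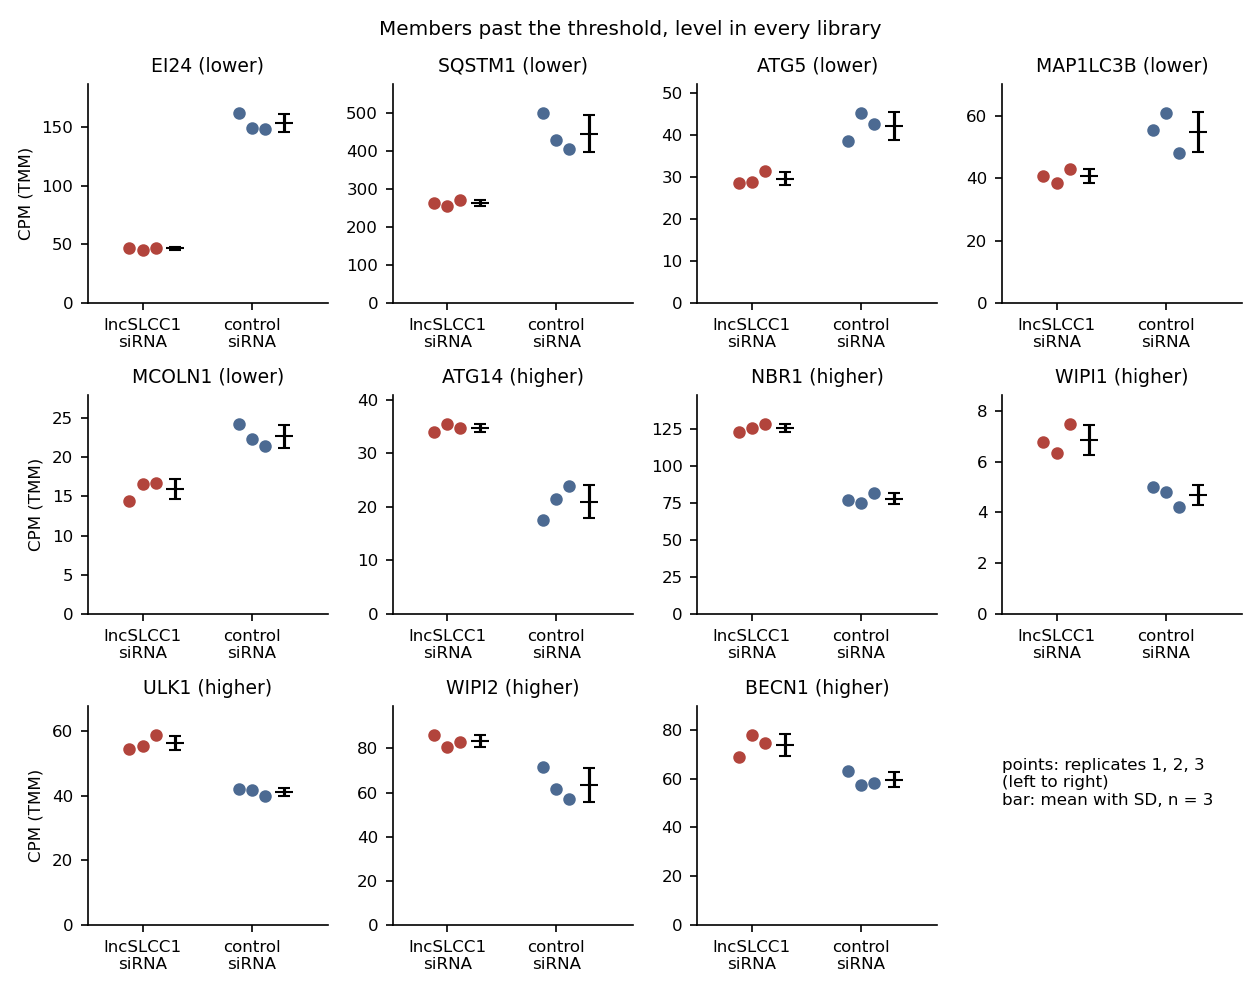
CPM (y axis, from 0) of the 11 called genes in each library, lncSLCC1 siRNA in red and control in blue, with replicates 1 to 3 from left to right and the mean with SD (n = 3) beside them. The groups are separate in every panel, and the ratio of the group means is farthest from 1 for EI24, with 46.5 CPM in lncSLCC1 siRNA libraries and 153 CPM in control libraries.

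Expressed per kilobase of the longest annotated transcript, so that genes can be compared, the order of the autophagy genes was led by SQSTM1 in both groups. It averaged 88.1 ± 2.63 CPM per kilobase in lncSLCC1 siRNA libraries and 149 ± 16.4 in control libraries (SD, n = 3 each). EI24 was 11th of the 27 genes in lncSLCC1 siRNA libraries, at 19.0 ± 0.383 CPM per kilobase, and 2nd in control libraries, at 62.5 ± 3.12. In the controls EI24 and GABARAPL1, next in order, did not differ beyond their spread. NBR1 was 6th in lncSLCC1 siRNA libraries and 12th in control libraries. The lowest was ULK2, at 0.948 CPM per kilobase in lncSLCC1 siRNA libraries and 0.847 in control libraries. Summed over the 27 autophagy genes, levels were 1734, 1734 and 1781 CPM in lncSLCC1 siRNA libraries and 1980, 1901 and 1848 CPM in control libraries. The lncSLCC1 siRNA sums were all below the control sums. Without EI24 the sums overlapped, at 1687, 1689 and 1734 CPM in lncSLCC1 siRNA libraries and 1818, 1751 and 1700 CPM in control libraries. The largest differences in CPM were those of SQSTM1 and EI24.

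**Figure D3:**
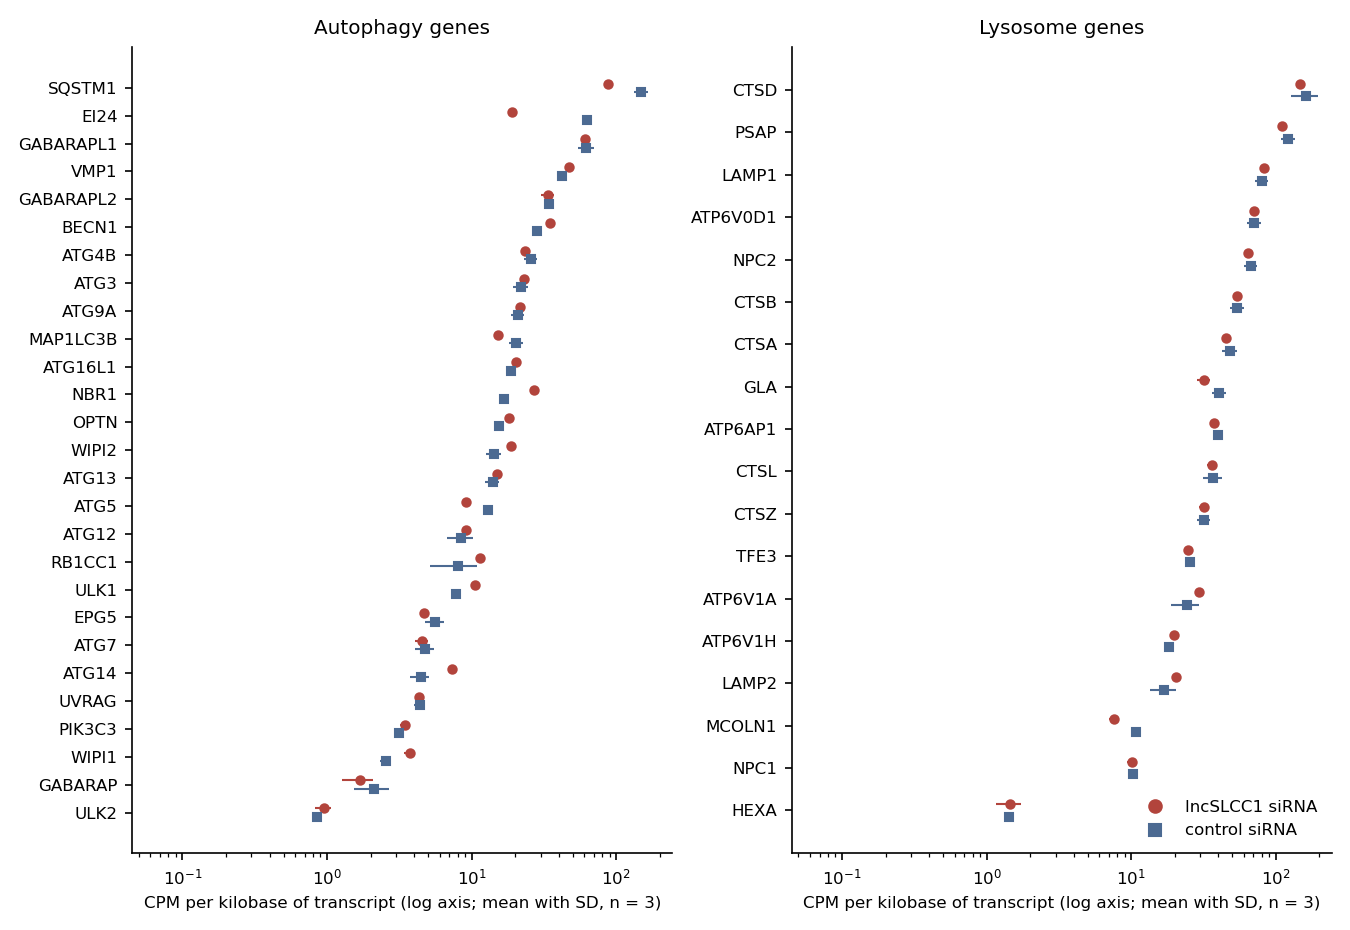
Mean CPM per kilobase of transcript (x axis, log scale) with SD (n = 3) for lncSLCC1 siRNA (red circles) and control (blue squares), autophagy genes on the left and lysosome genes on the right, ordered by the control mean. SQSTM1 and CTSD lead the panels, EI24 shows the widest gap between groups, and the symbols of most lysosome genes lie close together. TFEB, which was not tested, is left out.

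The transcription factor TFEB, a master regulator of lysosome genes, had few reads in these cells, with 0.40, 0.38 and 0.08 CPM in lncSLCC1 siRNA libraries and 0.28, 0.13 and 0.07 CPM in control libraries. These levels are 1 to 6 reads a library, too few to test. Its relative TFE3 was well expressed, at 84.0 ± 0.444 CPM in lncSLCC1 siRNA libraries and 87.5 ± 5.15 CPM in control libraries (SD, n = 3 each), and was not called (log2 fold change -0.06, SE 0.081, edgeR adjusted p = 0.656). The promoters of the genes described here were read for the E-box CACGTG and for TCACGTGA, the core of the CLEAR element, which contains the E-box. Both words read the same on either strand. RefSeq promoters for GRCh38.p14 were used, from 250 bases before to 50 after the start. The E-box was found in 5 of 13 lysosome genes and 2 of 24 autophagy genes with a promoter in the table. Of the 9761 tested genes with one, 12.5% held it. The longer word was found in 4 lysosome genes, 1 autophagy gene and 2.22% of those tested genes. For each gene the window below shows, in capitals, the first copy of the longer word, or the E-box where it stands alone. Windows run 5′ to 3′ on the gene's strand.
MCOLN1, chr19:7522571-7522600, plus strand: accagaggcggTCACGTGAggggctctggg
LAMP1, chr13:113297199-113297228, plus strand: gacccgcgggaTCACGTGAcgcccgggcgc
CTSA, chr20:45891298-45891327, plus strand: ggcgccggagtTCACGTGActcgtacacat
ATP6V0D1, chr16:67481199-67481228, minus strand: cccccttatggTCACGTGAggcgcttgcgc
CTSD, chr11:1763957-1763986, minus strand: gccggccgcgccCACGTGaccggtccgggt
ATG3, chr3:112561940-112561969, minus strand: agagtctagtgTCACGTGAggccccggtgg
ATG14, chr14:55411834-55411863, minus strand: aaaacaaaatccCACGTGactggctctcct
Of these 7 genes, MCOLN1 was lower, ATG14 was higher and the others were not called. The EI24 promoter in the table held neither word. A match is a description of the letters and says nothing about binding in these cells.

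MCOLN1, which encodes the calcium channel mucolipin of the lysosomal membrane, was the 1 lysosome gene called. It had 14.4, 16.5 and 16.7 CPM in lncSLCC1 siRNA libraries and 24.2, 22.3 and 21.4 CPM in control libraries. Each lncSLCC1 siRNA library was below each control (log2 fold change -0.51, SE 0.112, edgeR adjusted p = 0.0177). LAMP1, an abundant glycoprotein of the lysosomal membrane and a common marker of the organelle, had 224, 219 and 229 CPM in lncSLCC1 siRNA libraries and 241, 202 and 205 CPM in control libraries. These values overlap, and the difference was small (log2 fold change 0.05, SE 0.086, edgeR adjusted p = 0.726). LAMP2, which also serves as the receptor of chaperone-mediated autophagy, had 80.6, 82.8 and 83.9 CPM in lncSLCC1 siRNA libraries and 52.5, 72.2 and 79.4 CPM in control libraries. The groups were separate only by a narrow gap, with control replicate 1 far down, and LAMP2 was not called (log2 fold change 0.28, SE 0.136, edgeR adjusted p = 0.193).

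None of the 5 listed cathepsin genes was called. CTSD, the aspartic protease cathepsin D and the most abundant lysosome gene per kilobase, had 328, 301 and 301 CPM in lncSLCC1 siRNA libraries and 423, 335 and 273 CPM in control libraries. The controls spread over a wider range than the lncSLCC1 siRNA libraries and enclosed them (log2 fold change -0.15, SE 0.136, edgeR adjusted p = 0.485). CTSD is also uncertain, because 52.7% of its exon bases are shared with other annotated genes. CTSA, CTSB, CTSL and CTSZ had log2 fold changes of -0.09, -0.02, -0.02 and 0.01. CTSA shares 28.5% of its exon bases with genes on the opposite strand. Outside the list, the cathepsin gene CTSV was called lower, close to the threshold (log2 fold change -0.49, SE 0.142, edgeR adjusted p = 0.0487). CTSC, CTSH, CTSK and CTSO were not called, and CTSF and CTSS were not tested.

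The genes of lipid and glycan breakdown were likewise not called. GLA, which encodes alpha-galactosidase, had 45.04, 40.8 and 50.2 CPM in lncSLCC1 siRNA libraries and 64.5, 57.3 and 52.1 CPM in control libraries. Its groups did not overlap and it missed the threshold by little (log2 fold change -0.35, SE 0.113, edgeR adjusted p = 0.0628). HEXA, a subunit of beta-hexosaminidase, was at 0.01 (SE 0.162), and PSAP, the precursor of the saposins, at -0.13 (SE 0.087). NPC1 and NPC2, which pass cholesterol out of the lysosome, were at -0.03 and -0.07.

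The proton pump genes were not called either. ATP6V1A, its catalytic subunit, had 129, 141 and 136 CPM in lncSLCC1 siRNA libraries and 83.3, 124 and 126 CPM in control libraries. As for LAMP2, the groups were separate and control replicate 1 was far below the others (log2 fold change 0.29, SE 0.142, edgeR adjusted p = 0.193). ATP6V1H, ATP6V0D1 and the accessory subunit ATP6AP1 were at 0.11, -0.02 and -0.09. Over all 17 lysosome genes tested and not called, log2 fold changes ran from -0.35 to 0.29. The smallest edgeR adjusted p among them was 0.0628.

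Among the lysosome genes, control replicate 1 was at one end of the 6 libraries more often than not. It was the highest of all 6 for 14 of the 18 tested, or 77.8%, and the lowest for 2, LAMP2 and ATP6V1A. Over all tested genes it was the highest for 32.9% and the lowest for 28.8%, and over the autophagy genes for 8 and 7 of 27. Summed over the lysosome genes, levels were 2099, 2024 and 2096 CPM in lncSLCC1 siRNA libraries and 2349, 2090 and 1964 CPM in control libraries, so the groups overlapped. Ribosomal protein genes, also highest in control replicate 1, took 3.67%, 3.51% and 3.68% of gene reads in lncSLCC1 siRNA libraries and 4.85%, 4.10% and 3.61% in control libraries. Their part in the lysosome values was not tested. The median coefficient of variation was 4.96% in lncSLCC1 siRNA libraries and 10.5% in control libraries for lysosome genes, and 4.07% and 10.3% for autophagy genes. Over all tested genes it was 5.92% and 13.6%, so the wider control spread was not particular to these genes.

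The calls differed in how well they held when a library was left out. EI24, SQSTM1, NBR1 and ATG14 were called in the same direction in all 14 alternative analyses. Leaving out any 1 lncSLCC1 siRNA library, or control replicate 2, ended the calls of ULK1, BECN1, WIPI1, WIPI2, ATG5, MAP1LC3B and MCOLN1, with their directions kept. The share of all genes called also fell under those omissions, to between 2.93% and 3.95%. Without control replicate 1 all 11 calls were kept, ATG13, RB1CC1 and OPTN were also called higher, and EPG5 and GLA lower, while 4543 of 15646 genes tested were called. Without control replicate 3 the calls of BECN1 and WIPI1 ended, and RB1CC1 and LAMP2 were called higher and GLA lower. Calls over all genes also rose under that omission, to 3702 of 15628 tested, or 23.7%.

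**Figure D4:**
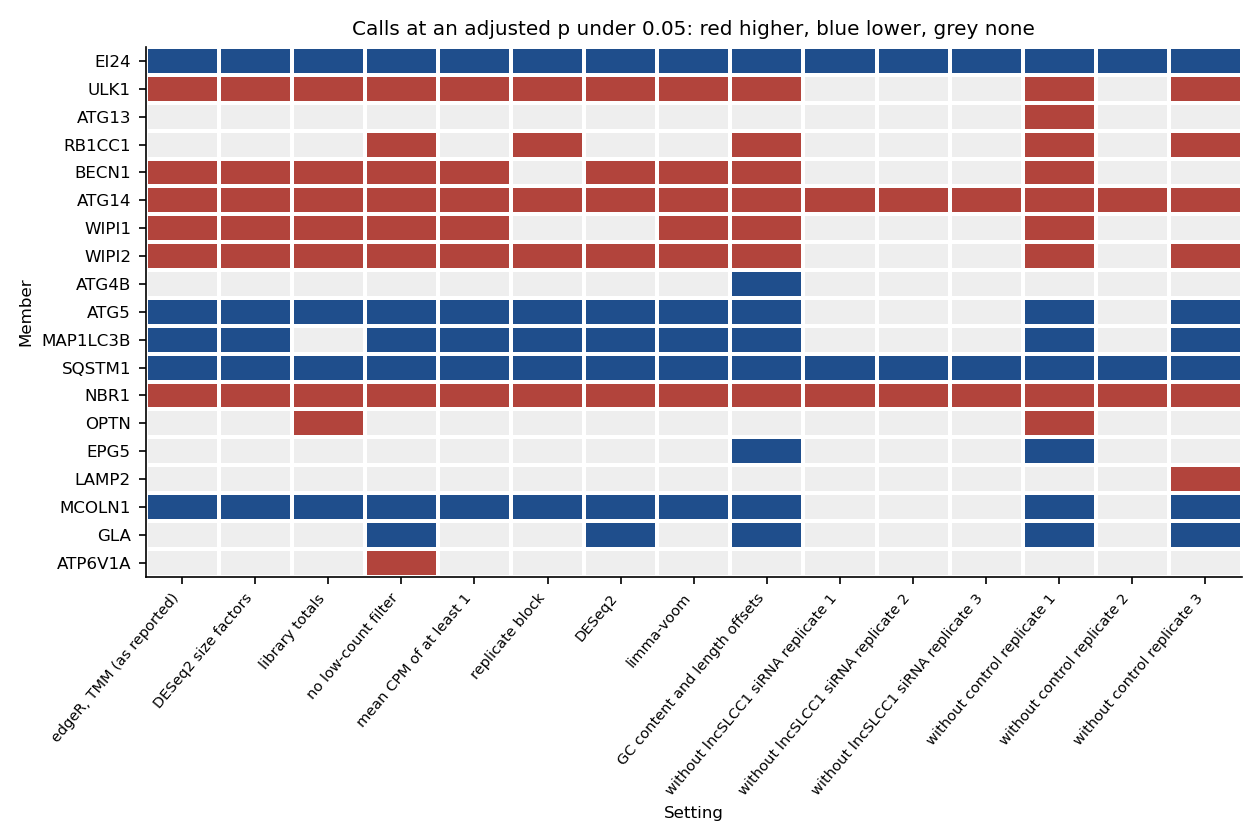
Each row is a gene called in at least 1 analysis and each column 1 analysis, as reported at the left and then the 14 alternatives, with red for called higher, blue for called lower and grey for not called. The rows of EI24, ATG14, SQSTM1 and NBR1 are filled throughout, and the other rows lose their colour in the 4 columns that leave out a lncSLCC1 siRNA library or control replicate 2.

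With higher and lower calls pooled, most lists of further genes of the same pathways were called at rates near the 13.8% of all tested genes. The nutrient sensing genes, at 7.14%, lay below it. By direction, 6.46% of all tested genes were higher and 7.39% lower, while the calls of several lists ran mainly one way. Of 42 other autophagy genes tested, 5 were higher and 1 lower, or 14.3%. FYCO1, which links autophagosomes to kinesin, was higher at 116.5 ± 8.45 CPM in lncSLCC1 siRNA libraries and 75.9 ± 5.87 CPM in control libraries (SD, n = 3 each; log2 fold change 0.62, edgeR adjusted p = 0.0035). VPS39, a subunit of the HOPS tethering complex, was higher by 0.38 on the log2 scale (edgeR adjusted p = 0.0199). TAX1BP1, another cargo receptor, was higher by 0.45 on the log2 scale, at 470.2 ± 6.82 CPM in lncSLCC1 siRNA libraries and 345 ± 48.5 CPM in control libraries (SD, n = 3 each; edgeR adjusted p = 0.0204). The lower gene was VAMP8, a SNARE protein of autophagosome fusion, at 34.0 ± 0.634 CPM in lncSLCC1 siRNA libraries and 51.2 ± 7.57 CPM in control libraries (SD, n = 3 each; log2 fold change -0.59, edgeR adjusted p = 0.0114).

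Of 38 other lysosomal enzyme genes tested, 0 were higher and 6 lower, or 15.8%, and their median log2 fold change was -0.01. Among them, GALC, which breaks down galactosylceramide, and PPT1, a palmitoyl thioesterase, were lower, at log2 fold changes of -0.49 (edgeR adjusted p = 0.0109) and -0.38 (edgeR adjusted p = 0.0117). The all-lower direction depended on scaling: with library totals 3 genes of the list were called higher and 3 lower. Of 23 other membrane and sorting genes 3 were higher and 0 lower, or 13.0%: TMEM192, a lysosomal membrane protein, at 0.63, IGF2R, the receptor that carries enzymes to lysosomes, at 0.46, and HGSNAT, an acetyltransferase of heparan sulfate breakdown, at 0.40, with edgeR adjusted p of 0.0041, 0.0098 and 0.028. Of 15 other vacuolar ATPase genes ATP6V1E2 was higher (0.46, edgeR adjusted p = 0.0343) and ATP6V0B lower (-0.38, edgeR adjusted p = 0.0399), or 13.3%. Of 14 genes of nutrient sensing at the lysosome 1 was called, or 7.14%. This was LAMTOR2, a subunit of the Ragulator scaffold, at 23.3 ± 0.883 CPM in lncSLCC1 siRNA libraries and 41.4 ± 6.10 CPM in control libraries (SD, n = 3 each; log2 fold change -0.83, edgeR adjusted p = 0.0032).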

How the data were processed

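Total RNA of DLD-1 cells transfected with lncSLCC1 siRNA or control siRNA was sequenced in 3 libraries a group. The deposited values were whole read counts by gene symbol, 1 table a library. The tools, per the submitters' processing notes, were TopHat2 (version 2.0.11) and HTSeq on builds hg19 and GRCh37. No source used here states the strand setting or annotation release. How reads of overlapping or antisense genes were assigned therefore cannot be told, beyond that ambiguous reads were counted for no gene. Summary lines of the counter stayed out of all totals: 5.42% to 7.58% of reads and alignments had no feature, 8.83% to 10.1% were ambiguous and 12.8% to 13.8% were not unique.

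Groups and replicate numbers came from the sample titles. The names under which the counts were deposited carry other replicate numbers, which were not used. The 2 groups were compared with edgeR 4.0.16 (R 4.3.3): quasi-likelihood test, TMM library sizes, default expression filter, no covariate, and Benjamini-Hochberg adjustment over 15242 genes. The biological coefficient of variation was 10.9%. Each SE was the log2 fold change over the square root of its F statistic. Levels per kilobase used the longest GENCODE 29 transcript. 3' UTRs and exon overlaps came from GENCODE 29 (GRCh38) and promoters from RefSeq (GRCh38.p14), matched by symbol, so no coordinate rests on the authors' build. The members and lists were chosen with earlier results of these data known. All called genes were named, with SQSTM1, MAP1LC3B, BECN1, ULK1, ATG5, TFEB, LAMP1 and CTSD whatever their values. So were the 3 genes of smallest p in each direction from each further list, and the neighbours of EI24. Some were chosen after their values were seen: genes overlapping BECN1, WIPI1 and SQSTM1, the copy MAP1LC3B2, WDR45 and WDR45B of the WIPI family, and the further cathepsin genes. The values by library of RB1CC1, OPTN, LAMP2, GLA and ATP6V1A were chosen in the same way. The share of genes called at a mean of 10 CPM or more was also chosen after seeing the data. RUBCN was found as KIAA0226. 1 gene the rule names is not reported here. Alternatives were DESeq2 size factors, library totals, no expression filter, a mean CPM of at least 1, a replicate block, DESeq2 1.42.0, limma-voom (limma 3.58.1), GC content and length offsets (mgcv 1.9.3), and each library left out in turn. The fit as reported, library totals, no expression filter, the replicate block, DESeq2 and limma-voom were also run on simulated counts. These gave every gene and library the same dispersion, so they did not copy the spread of control replicate 1. The other alternatives were not run on simulated counts.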

Additional observations from a re-analysis of the deposited data

How the results depend on the processing

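EI24 kept its direction and call in all 14 alternatives. Over all genes 2110 were called as reported, 3272 with no expression filter, 4745 with GC content and length offsets, and 457 to 4543 with 1 library left out. The autophagy genes, with 10 calls as reported, had 4 to 14 with 1 library left out. The lysosome genes, with 1, had 3 with no expression filter, 2 by DESeq2, 2 with GC content and length offsets and 0 to 3 with 1 library left out. With GC content and length offsets the other autophagy genes had 13 calls, the other enzymes 17, the membrane and sorting genes 8, the vacuolar ATPase genes 5 and the nutrient sensing genes 3. With 1 library left out these lists had 1 to 12, 1 to 14, 1 to 7, 0 to 6 and 1 to 3. The other vacuolar ATPase genes also had 1 call with library totals, 1 with the replicate block and 1 by DESeq2. The replicate numbers of the sample titles did not pair the libraries: deviations of same-numbered libraries correlated at 0.09, 0.00 and -0.02. The lncSLCC1 siRNA replicates 2 and 3 each correlated best with a control of another number. Over all pairs across the groups the largest correlation was 0.10, and no block on other numbers was fitted. With the replicate block 2052 genes were called, EI24 stood at -1.72, and the autophagy calls of BECN1 and WIPI1 were lost and that of RB1CC1 gained. Leaving out 1 library leaves 2 in its group.

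No called gene changed sign in any alternative. Genes that were not called and lay near 0 did. GC content and length offsets gave log2 fold changes of -0.090 for PIK3C3, -0.049 for ATG3, -0.052 for ATG12, 0.0023 for GABARAPL1, 0.015 for GABARAPL2, 0.022 for CTSL, -0.041 for HEXA and 0.056 for ATP6V0D1. Library totals gave 0.057 for UVRAG, 0.047 for GABARAPL1, 0.030 for GABARAPL2, 0.012 for TFE3, 0.052 for CTSB, 0.051 for CTSL, 0.042 for NPC1, 0.0032 for NPC2 and 0.056 for ATP6V0D1. DESeq2 gave -0.0036 for CTSZ and -0.0054 for HEXA, the replicate block gave -0.00051 for HEXA, and limma-voom -0.012 for HEXA. With 1 library left out the range was -0.061 to 0.059 for UVRAG, -0.17 to 0.035 for ATG7, -0.052 to 0.21 for ATG12, -0.11 to 0.074 for GABARAPL1, -0.11 to 0.034 for GABARAPL2, -0.00039 to 0.13 for LAMP1, -0.093 to 0.072 for CTSB, -0.29 to 0.025 for CTSD, -0.092 to 0.10 for CTSL, -0.063 to 0.089 for CTSZ, -0.16 to 0.11 for HEXA, -0.070 to 0.026 for NPC1, -0.13 to 0.0095 for NPC2 and -0.089 to 0.071 for ATP6V0D1. The cause was not tested.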
